A study of Mus musculus with 4 samples.

Results

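The heavy chain variable genes, Ighv, were taken as all features whose symbol starts with Ighv, which gave 185 of the 32287 features counted. They held 27 unique molecular identifiers (UMIs, each standing for 1 captured RNA molecule) of 13565628, in popliteal lymph nodes (PLNs, the nodes that drain the ankle) on 4 Visium capture areas, where a grid of barcoded spots captures the poly-adenylated RNA of a tissue section and a spot can cover several cells. For WT, 10 PLNs of 5 wild-type mice aged 5.5 months shared an area. The Early area held 6 PLNs of 3 TNF-Tg mice aged 5.5 months with early arthritis, and Advanced areas 1 and 2 each held 6 PLNs of 3 TNF-Tg mice aged 8.5 to 9 months with advanced arthritis. All mice were C57BL/6 males, and TNF-Tg mice carry a human TNF transgene, which gives them chronic arthritis. Early and Advanced differ in age as well as in disease, and these cannot be told apart. Advanced and WT differ in age, genotype and disease, which cannot be told apart either. WT and Early each had 1 area, only Advanced had 2, and spots were not treated as replicates of a condition.

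An antibody heavy chain gene is assembled in each developing B cell by joining 1 V, 1 D and 1 J segment, and the V segment encodes most of the part of the chain that touches the antigen. In the finished transcript the V segment lies towards the 5′ end and the constant exons, which set the isotype (IgM, IgG, IgA and so on), lie towards the poly-A tail. Plasma cells, the antibody-secreting cells that gather in the medulla of a lymph node, hold far more of this transcript than resting B cells, and the offspring of 1 B cell share its V gene. The comparison of areas asked which V genes were used in the PLNs at each stage of arthritis, and whether the UMIs of a V gene lay together.

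Depth was 1808678 UMIs over 833 spots for WT, 5180493 over 1489 for Early, 3378219 over 2015 for Advanced 1 and 3198238 over 1782 for Advanced 2. The tissue was checked with marker genes. The 8 B cell markers took 21.6, 40.0, 34.9 and 31.2 of every 10000 UMIs on WT, Early, Advanced 1 and Advanced 2, and the 9 plasma cell markers took 24.3, 13.8, 16.5 and 20.4, with each marker detected on each area. Cd79a, a signalling subunit of the B cell receptor, led the first list with 13321 UMIs, and Jchain, which links IgM and IgA subunits in plasma cells, led the second with 13957. The 7 T cell markers took 7.50, 4.97, 5.66 and 6.15 of every 10000 UMIs and the 6 sinus and macrophage markers 36.8, 27.4, 20.0 and 25.7, with the scavenger receptor Marco as the most abundant gene of the latter list (29716 UMIs). The 8 germinal centre markers took 1.38, 1.48, 1.45 and 1.30, and the 6 fat and capsule markers 9.62, 6.85, 9.96 and 12.5. In such tissue sums, fewer cells of a type and less RNA per cell cannot be told apart.

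The 185 Ighv features lie on chromosome 12 of GRCm38 between 113572927 and 116010093. GENCODE M21 annotates 113 of them as V genes, 70 as V pseudogenes and 2 as other Ig-like V genes (IG_LV_gene), and 183 lie on the minus strand. A V gene found in a short read is told from its relatives by few bases. The 5 Ighv genes with more than 1 UMI are shown by the last 90 bases of their annotated germline transcript, 5′ to 3′, the end that lies nearest to the constant exons after joining. Capitals mark the bases that differ from, or are absent in, the most similar other Ighv gene, and 90 bases is the length of the transcript read. All 5 are on the minus strand.
Ighv1-76: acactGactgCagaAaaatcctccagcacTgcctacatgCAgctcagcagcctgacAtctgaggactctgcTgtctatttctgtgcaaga
Ighv1-53: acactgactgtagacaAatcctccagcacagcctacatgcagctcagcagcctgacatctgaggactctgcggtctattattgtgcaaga
Ighv1-81: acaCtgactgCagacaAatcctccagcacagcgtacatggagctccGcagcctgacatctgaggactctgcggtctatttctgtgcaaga
Ighv9-3: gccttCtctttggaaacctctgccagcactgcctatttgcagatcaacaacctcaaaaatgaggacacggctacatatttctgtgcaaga
Ighv6-3: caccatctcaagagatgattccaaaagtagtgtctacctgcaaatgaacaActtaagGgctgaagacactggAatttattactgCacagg

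Ighv1-76 (ENSMUSG00000093896, chr12:115847881-115848331) was 92.2% identical to Ighv1-75 along the transcript, with 8 marked bases in the stretch shown. Ighv1-53 (ENSMUSG00000093894, chr12:115158403-115158835) was 96.3% identical to Ighv1-62 and had 1 marked base. Ighv1-81 (ENSMUSG00000094689, chr12:115920279-115920712) was 92.9% identical to Ighv1-85 and had 4 marked bases. Ighv9-3 (ENSMUSG00000096459, chr12:114140692-114141122) was 94.3% identical to Ighv9-2 and had 1 marked base, and Ighv6-3 (ENSMUSG00000076677, chr12:114391712-114392169) was 90.8% identical to Ighv6-6 and had 4. Every 90-base window of Ighv1-76, Ighv1-81, Ighv9-3 and Ighv6-3 occurred in no other Ighv transcript, and 92.0% of those of Ighv1-53 did. Over the 16 genes with a UMI 94.2% of such windows belonged to 1 gene, and over the 169 without a UMI 94.0% did. Reads from the remaining windows could have been split between near-identical genes or dropped in the counting, so the gene names of single UMIs carry this uncertainty.

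The V segments were close to absent from these data, while the constant part of the same transcripts was abundant. Of the 185 Ighv genes 16 had at least 1 UMI, which is 8.65% of them, and 11 of the 16 had exactly 1. The 27 UMIs amounted to 1.99 counts per 1000000 UMIs (CPM, exact Poisson interval 1.31 to 2.90), against 425124 UMIs on the 8 heavy chain constant genes, or 15745 constant UMIs for every Ighv UMI. All 27 lay on annotated V genes and 0 on the 70 pseudogenes or the 2 other Ig-like genes.

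By area the Ighv genes had 4 UMIs on WT, 11 on Early, 5 on Advanced 1 and 7 on Advanced 2. In CPM of the area this was 2.21 on WT (interval 0.603 to 5.66), 2.12 on Early (1.06 to 3.80), 1.48 on Advanced 1 (0.481 to 3.45) and 2.19 on Advanced 2 (0.880 to 4.51). The 4 intervals overlapped. For 1 gene with no UMI, 3 counts allow a level of up to 1.66 CPM on WT, 0.579 on Early, 0.888 on Advanced 1 and 0.938 on Advanced 2, which is below the level of all Ighv genes together on the same area. The Advanced areas pooled had 0.859 times the Early rate (exact conditional interval 0.347 to 2.15) and 0.825 times the WT rate (0.250 to 3.51), and Early had 0.960 times the WT rate (0.285 to 4.13). A difference in Ighv level between the stages was therefore not detectable at this depth, and a 2-fold difference in either direction lay within each of the 3 intervals.

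**Figure D1:**
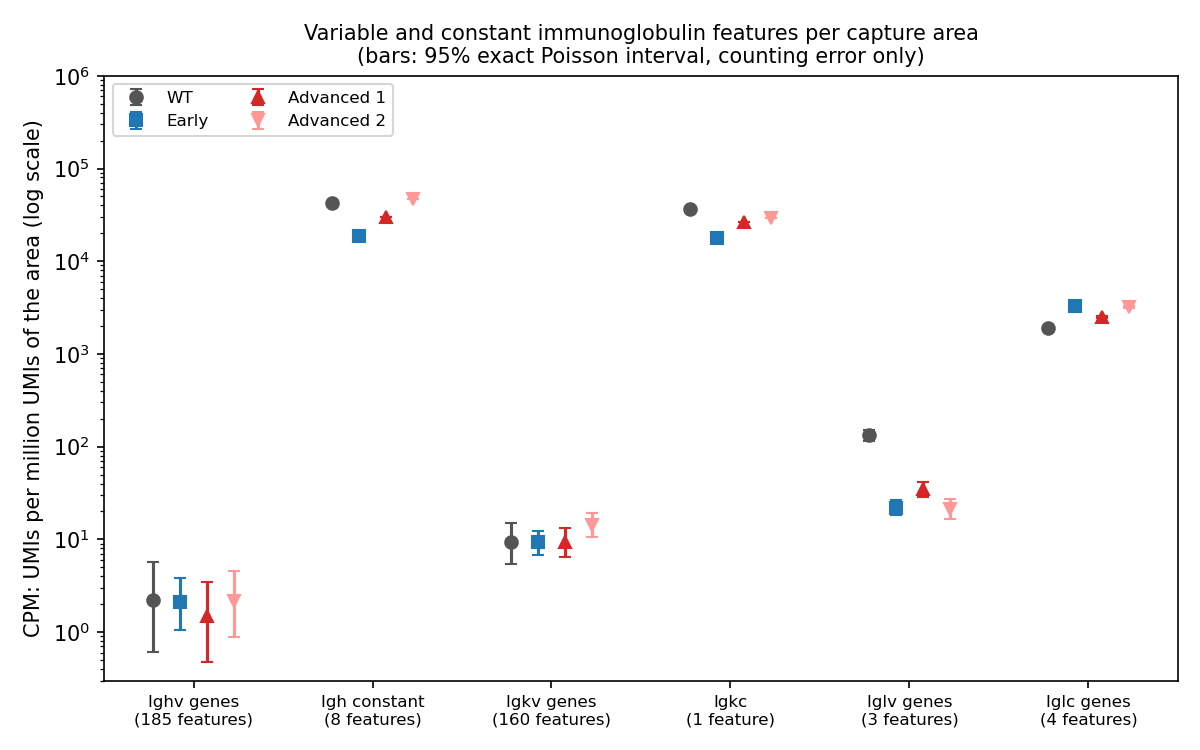
Level in CPM of the capture area (log scale) for variable and constant features of the heavy (Igh), kappa (Igk) and lambda (Igl) chains. Points are the 4 areas and bars are 95% exact Poisson intervals. The Ighv points sit between 1.48 and 2.21 CPM and the heavy chain constant points between 18741 and 46727.

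Set against the constant genes the order of the areas changed, since these genes took 4.27% of all UMIs on WT, 1.87% on Early, 3.00% on Advanced 1 and 4.67% on Advanced 2. Per 10000 heavy chain constant UMIs there were 0.517 Ighv UMIs on WT (interval 0.141 to 1.32), 1.13 on Early (0.566 to 2.03), 0.494 on Advanced 1 (0.160 to 1.15) and 0.468 on Advanced 2 (0.188 to 0.965). The Early area was the highest by this measure. The pooled Advanced areas had 0.422 times the Early ratio, and the interval of 0.171 to 1.06 included 1.

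The detected V genes of each area were few. WT had 4 genes with 1 UMI each, Ighv1-26, Ighv1-43, Ighv1-64 and Ighv5-16. Early had 8 genes, with 3 UMIs of Ighv1-53, 2 of Ighv6-3 and 1 each of Ighv1-75, Ighv1-76, Ighv2-2, Ighv5-6, Ighv7-3 and Ighv9-3. Advanced 1 had 2 genes, with 3 UMIs of Ighv1-81 and 2 of Ighv9-3. Advanced 2 had 4 genes, with 4 UMIs of Ighv1-76 and 1 each of Ighv1-55, Ighv4-1 and Ighv6-6. Of the 16 genes 14 were seen on 1 area, among them the 11 with a single UMI, which can lie on no more than 1, and 2 on 2 areas, Ighv1-76 on Early and Advanced 2 and Ighv9-3 on Early and Advanced 1. No gene was seen on both Advanced areas, and at 1 to 4 UMIs a gene this does not show that the sets of genes differed.

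**Figure D2:**
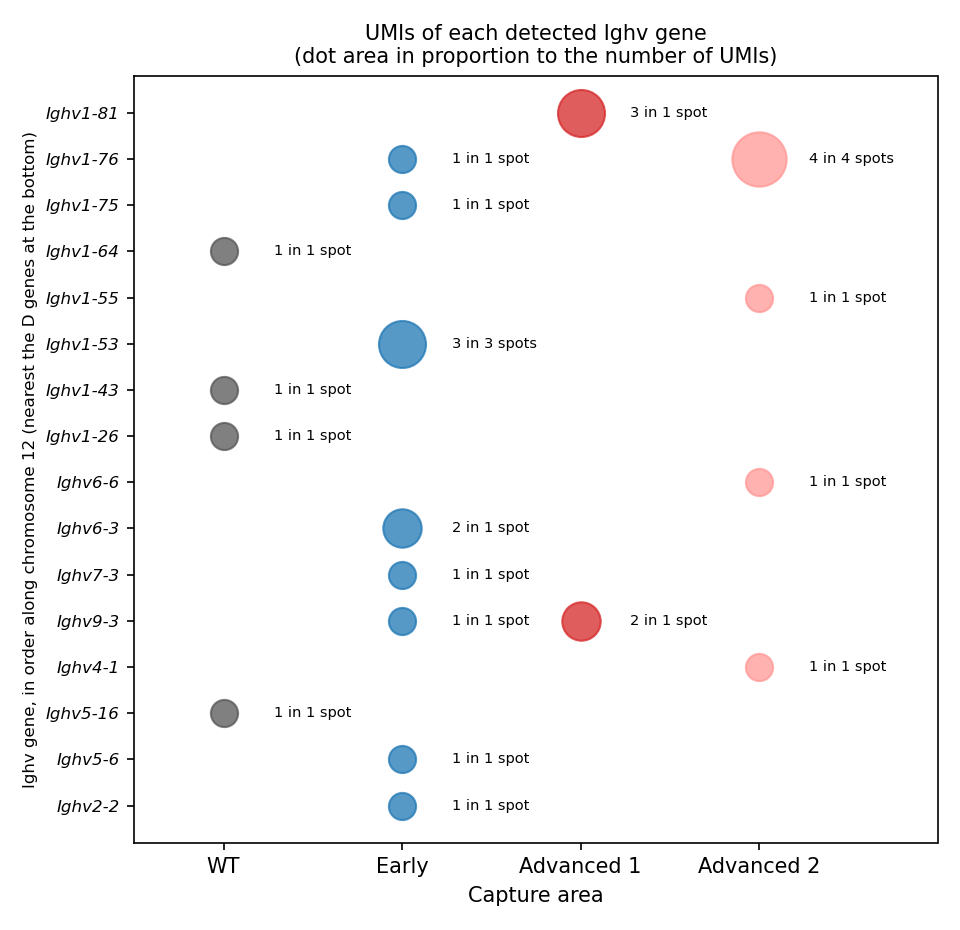
UMIs of the 16 detected Ighv genes (vertical axis, in their order along the chromosome) on the 4 capture areas (horizontal axis), with the dot area in proportion to the UMIs and the number of spots beside each dot. Ighv1-76 on Advanced 2 has the most UMIs, 4 in 4 spots, and 14 genes appear on 1 area.

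The leading gene took a larger share of the Ighv UMIs on the Advanced areas, though on very few UMIs and with overlapping intervals. Ighv1-53 took 27.3% of the 11 UMIs on Early (exact binomial interval 6.02% to 61.0%), Ighv1-81 took 60.0% of the 5 on Advanced 1 (14.7% to 94.7%) and Ighv1-76 took 57.1% of the 7 on Advanced 2 (18.4% to 90.1%). On WT each gene had 25.0% (0.631% to 80.6%). With each gene counted at most once per spot, Advanced 1 kept 2 UMIs, 1 for each of its 2 genes, and had no leading gene. The leading gene was picked as the highest, which lifts its share when UMIs are few. Among all pairs of Ighv UMIs of an area, 0 of 6 were of the same gene on WT, 4 of 55 on Early, 4 of 10 on Advanced 1 and 6 of 21 on Advanced 2. The 4 pairs of Advanced 1 were all within single spots, and the 6 of Advanced 2 were all between spots.

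By family, Ighv1 (the large J558 family) had 16 of the 27 UMIs, or 59.3% (interval 38.8% to 77.6%), and 93 of the 185 genes, or 50.3%. Family 6 had 3 UMIs over 7 genes, family 9 had 3 over 4 genes, family 5 had 2 over 22 genes, and families 2, 4 and 7 had 1 each. The other families, 3, 8 and 10 to 16, had 0 UMIs, and each of these zeros allows a share of up to 12.8% (exact binomial). Along the locus, the 62 genes nearest to the D segments had 8 UMIs on 6 genes, the middle 62 had 4 on 3, and the distal 61 had 15 on 7. The UMIs thus came from both ends of the locus, and the distal end held Ighv1-76, Ighv1-53 and Ighv1-81.

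The question of whether the UMIs of a V gene sat in neighbouring spots could be put to few molecules. The 27 UMIs lay in 23 spots, 0.376% of the 6119, with 1 UMI in 20 of them and 2 or more in 3. Within areas these spots formed 73 pairs, of which 0 were neighbours and 1 pair was 2 spot spacings apart. The ratio planned for neighbouring pairs needed a gene with at least 50 UMIs on an area, and 0 genes reached 50 or 20. Of the 14 pairs of UMIs of the same gene, 5 lay in the same spot, 0 in neighbouring spots and 9 in spots far apart. Of the 78 pairs of UMIs of different genes, 0 lay in the same spot and 0 in neighbouring spots. The spots with Ighv5-16 on WT, Ighv1-76 on Early and 1 of those with Ighv1-53 on Early had 0 neighbours under tissue. For these a neighbouring pair was not possible. The 3 spots with Ighv1-53 on Early lay between 25 and 52 spot spacings from each other, and the 4 spots with Ighv1-76 on Advanced 2 between 23 and 54. Those UMIs were therefore scattered over the area, and at this distance a spot can belong to another node.

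**Figure D3:**
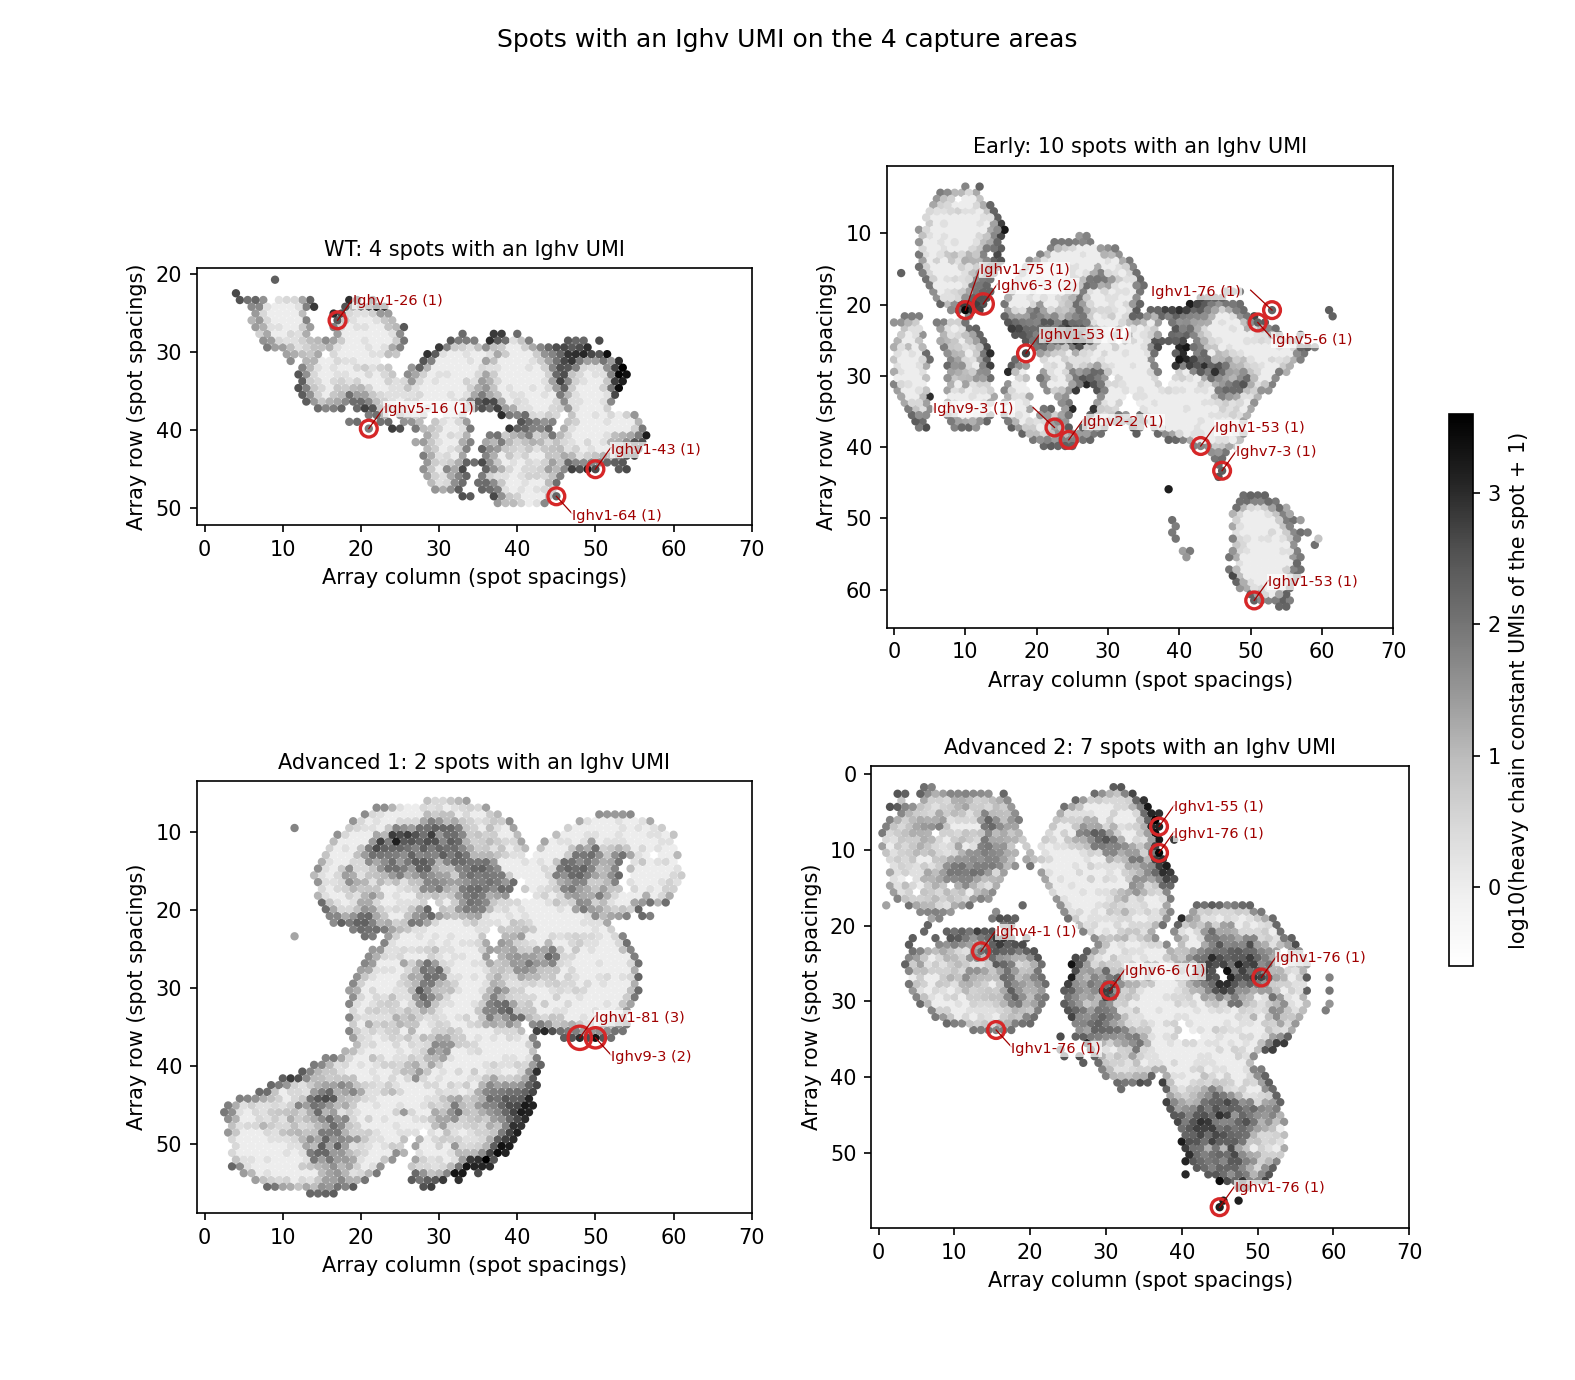
Spots of the 4 capture areas by array column and row (in spot spacings), shaded by the log10 of the heavy chain constant UMIs of the spot plus 1. Red circles mark the 23 spots with an Ighv UMI, with the gene and its UMIs. On Advanced 1 the 2 circles lie 2 spacings apart, and on the other areas the circles are spread over the sections.

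The 3 spots with more than 1 UMI of a gene were singled out after their values were seen. On Advanced 1, a spot with 3 UMIs of Ighv1-81 held 963 heavy chain constant UMIs, and 632 of them (65.6%) were Igha, the constant gene of IgA. That spot alone had 36.8% of the 1717 Igha UMIs of the area and ranked first for Igha among its spots, by UMIs and, among spots with at least 500 UMIs, by share. Igha took 252 of every 10000 UMIs in the spot, 1.71 in its 4 neighbours under tissue and 5.08 on the whole area. The second spot on Advanced 1, with 2 UMIs of Ighv9-3, held 2169 constant UMIs, of which 1744 (80.4%) were Ighg1, the constant gene of IgG1. It had 31.3% of the 5573 Ighg1 UMIs of the area, the most of any spot, and was 2nd by share among spots with at least 500 UMIs. Ighg1 took 441 of every 10000 UMIs there, 28.2 in its 4 neighbours and 16.5 on the whole area. Both spots were thus dominated by 1 isotype that the spots around them held at a far lower level, and their isotypes differed although they lay 2 spacings apart.

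Depth moved with these results. The Ighv9-3 spot was the deepest of Advanced 1, with 39572 UMIs, and the Ighv1-81 spot was the 8th deepest, with 25124, whereas the median spot of the area held 287. The third spot with a repeated gene, on Early, had 2 UMIs of Ighv6-3 and 20723 UMIs in all. Its 337 constant UMIs were led by Ighm with 174 (51.6%), and its Igha, Ighg1 and Ighg2b UMIs were 1, 14 and 65. Ighm took 84.0 of every 10000 UMIs in it, 70.2 in its 4 neighbours and 75.9 on the area, so that this spot did not stand apart from its surroundings as the 2 on Advanced 1 did. Light chain UMIs were present in all 3, with 663 of Igkc, the kappa constant gene, in the Ighv1-81 spot, 1954 in the Ighv9-3 spot and 428 in the Ighv6-3 spot.

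**Figure D4:**
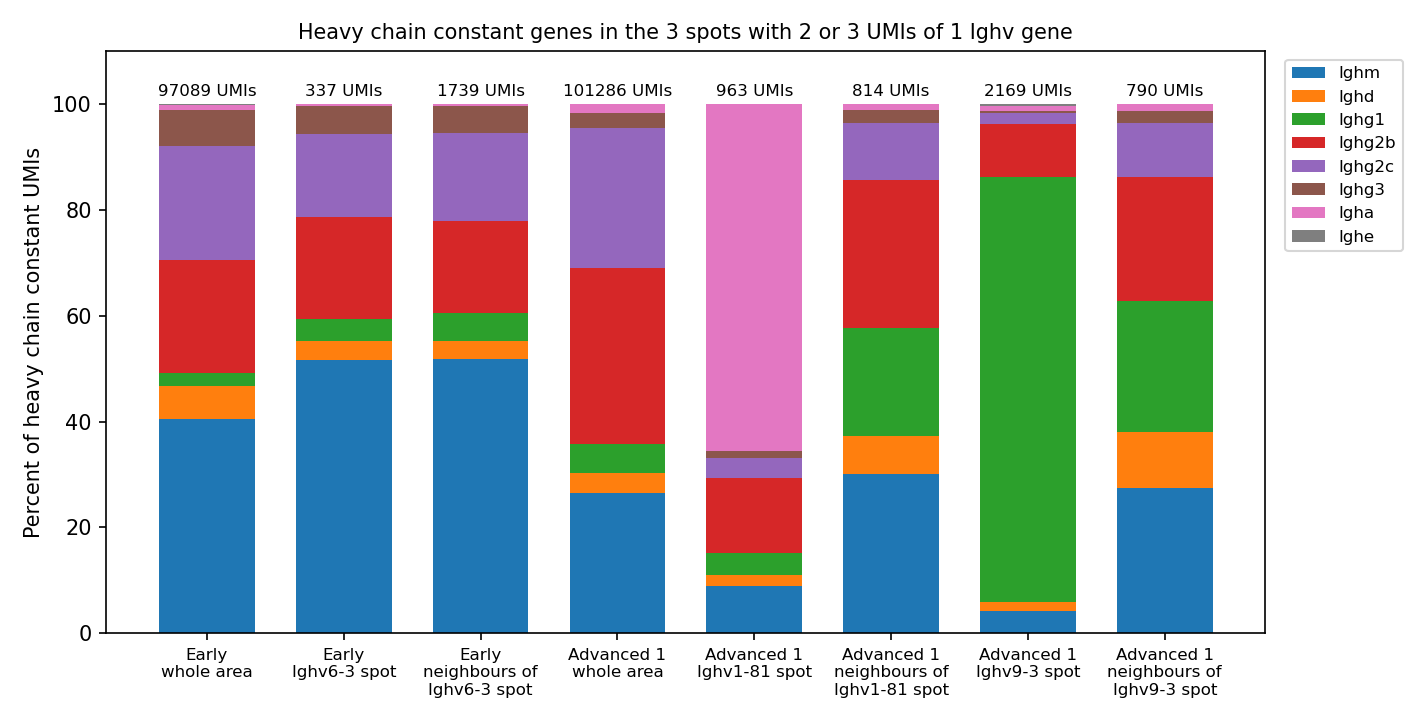
Percent of heavy chain constant UMIs on each of the 8 constant genes (stacked bars, total UMIs above each) for the spots with 2 or 3 UMIs of an Ighv gene, the neighbours of each spot under tissue, and the whole area. Igha makes up 65.6% of the Ighv1-81 spot and Ighg1 80.4% of the Ighv9-3 spot, while the Ighv6-3 spot has a makeup like its neighbours.

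The 4 spots with Ighv1-76 on Advanced 2 differed in isotype. Ighm, the constant gene of IgM, led 1 of them with 29 of 59 constant UMIs. Ighg2b led 2, with 509 of 1448 and 1794 of 3038, and Ighg2c led the fourth with 214 of 524. The constant genes took 0.835%, 10.1%, 15.8% and 11.7% of the UMIs of these spots, in that order, against 4.67% on the area. The single Ighv1-76 spot of Early was led by Ighg2c, with 71 of 192. The 3 spots with Ighv1-53 on Early were led by Ighm in 2, with 80 of 186 and 25 of 56, and by Ighg2c in 1, with 278 of 530.

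Over the 23 spots, Ighm led the constant genes in 10 (in 1 of them at the same count as Ighg2b), Ighg2b in 7, Ighg2c in 4, and Ighg1 and Igha in 1 each. Ighd, Ighg3 and Ighe led in 0. The constant UMIs of these spots ran from 22 to 3185. Their constant share was above that of their area in 13 of 23. Summed over the Ighv spots, the constant genes took 4.23% of UMIs on WT, against 4.54% in the other spots that were at least as deep as the shallowest Ighv spot of the area. The values were 3.11% against 1.85% on Early, 4.84% against 5.04% on Advanced 1, where there were only 6 such other spots, and 9.56% against 4.60% on Advanced 2. The share of the single spot was above that of the area in 1 of 4 spots on WT, 5 of 10 on Early, 2 of 2 on Advanced 1 and 5 of 7 on Advanced 2. The Early value rested on the Ighv1-75 spot, which held 3185 of the 5005 constant UMIs. Without the Ighv spot with the most constant UMIs of each area, which was tried after seeing the values, the shares were 3.04% on WT, 1.44% on Early, which is then below its comparator, 3.83% on Advanced 1 and 7.30% on Advanced 2. Of the 4 areas, only Advanced 2 stayed above its comparator in both settings.

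All 23 spots were deeper than the median spot of their area, and 12 were in its deepest 10% and 6 in its deepest 1%. Their UMIs ran from 575 over a median of 6781 to 39572. The shallowest, the Ighv9-3 spot of Early, was only at percentile 53.5 of depth on its area. By position, 22 of the 27 UMIs lay in rim spots, those with fewer than 6 neighbours under tissue, which is 81.5% (interval 61.9% to 93.7%). This class also takes in detached spots with 0 such neighbours, such as those of Ighv5-16 on WT and Ighv1-76 on Early, so it is not only the edge of a node. Rim spots were 23.7% of all spots but held 66.6% of all UMIs and 61.2% of the heavy chain constant UMIs. The Ighv level was 2.43 CPM in the rim (1.53 to 3.69) and 1.10 in the interior (0.359 to 2.58), and these intervals overlapped. Rim UMIs were 4 of 4 on WT, 9 of 11 on Early, 5 of 5 on Advanced 1 and 4 of 7 on Advanced 2. The level was higher in the rim on WT, Early and Advanced 1. On Advanced 2 it was the other way, with 1.94 CPM in the rim and 2.64 in the interior. There the rim held 57.1% of the Ighv UMIs and 64.5% of all UMIs. UMIs that share a spot are not independent, so intervals that include such UMIs are too narrow. The 22 rim UMIs came from 18 spots, the 11 UMIs of Early from 10 and the 5 of Advanced 1 from 2.

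Plasma-marker spots were, of the spots with at least 500 UMIs on each area, the 10% with the highest share of UMIs on Jchain, Mzb1, Xbp1, Derl3 and Tnfrsf17, genes of antibody secretion and plasma cell survival. They held 7 Ighv UMIs in 266 spots, or 4.76 CPM (1.92 to 9.82), and the other 2415 spots held 20, or 1.72 CPM (1.05 to 2.66). By area the plasma-marker spots held 1, 3, 0 and 3 of the Ighv UMIs of WT, Early, Advanced 1 and Advanced 2, while 3, 8, 5 and 4 lay in other spots. The constant genes took 9.80% of UMIs in the plasma-marker spots and 2.35% in the other spots, and per 10000 constant UMIs the Ighv genes had 0.486 in the former and 0.734 in the latter. With the top 20% of spots as the class, the plasma-marker spots held 15 Ighv UMIs (5.31 CPM, 2.97 to 8.76) and the other spots 12 (1.17 CPM, 0.606 to 2.05). These intervals did not overlap, unlike those of the 10% class. The 5 UMIs of Advanced 1, which came from 2 spots and are not independent, moved into the class. On WT the level was lower in the plasma-marker spots (2.11 CPM) than in the others (2.36), and on the other areas it was higher. Per 10000 constant UMIs the pooled direction then turned, with 0.681 in the plasma-marker spots and 0.612 in the others. By area it turned only on Advanced 1, from 0 against 0.878 to 0.815 against 0. WT (0.232 against 0.905) and Early (0.978 against 1.33) stayed lower in the plasma-marker spots, and Advanced 2 (0.618 against 0.374) stayed higher.

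In the fits across all genes with edgeR's quasi-likelihood test, 0 of the 185 Ighv genes passed the filter on low counts in any of the 4 comparisons, so none was tested there, and DESeq2 on the same genes tested none either. Among the genes that were tested, the share called at an adjusted p under 0.05 was 1.16% of 13102 for Advanced against Early, 2.08% of 13102 for Advanced against WT, 8.04% of 10998 for rim against interior spots, and 2.76% of 9969 for plasma-marker against other spots. Without the filter the 16 detected Ighv genes entered each edgeR fit, 0 were called and 0 had an unadjusted p under 0.05. The smallest adjusted p of an Ighv gene in edgeR was then 0.938, 0.911, 0.696 and 0.813, respectively. With 1 to 5 UMIs a gene, these values say only that the depth did not allow a call.

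Of the 8 constant genes of the same chain, 7 could be tested in the plasma-marker spots. The log2 difference was 2.63 ± 0.12 (SE) for Ighg2c (edgeR, adjusted p = 1.22e-11), 2.39 for Ighg2b, 2.21 for Igha, 2.05 for Ighm, 1.97 for Ighg1 and 1.91 for Ighg3, all called. Ighd, the constant gene of IgD, which mature naive B cells carry at their surface, was lower, at -0.71 ± 0.10 (edgeR, adjusted p = 0.00027). These spots were chosen by plasma cell genes, and plasma cells hold far more heavy chain transcript than resting B cells. The differences of the constant genes are therefore not independent of that choice. In the rim Ighg2c was lower than in the interior (-0.38 ± 0.11 on the log2 scale, edgeR, adjusted p = 0.0302), and the other 6 constant genes tested did not pass. Without the filter on low counts edgeR also called Igha (adjusted p = 0.000134, against 0.142 with the filter) and Ighe (adjusted p = 0.000179). With the filter the log2 difference of Igha was 0.54, higher in the rim. On Advanced 1 the Ighv1-81 spot, in the rim, held 632 of 1717 Igha UMIs, and the Ighv9-3 spot, also in the rim, 5 of 13 Ighe UMIs. The part of these spots in the calls was not tested. Of the 10 antibody secretion genes listed, the 6 that could be tested in the plasma-marker spots were all higher in edgeR (5 of them in DESeq2 too), among them Edem1 (log2 difference 1.29), which clears misfolded proteins, and the chaperone Hsp90b1 (1.06). Their median log2 difference was 0.89, against 0.00077 over all genes tested. They belong to the same secretion programme as the 5 genes that define these spots, which were left out of the test. The 10 secretion genes gave 0 calls in edgeR for Advanced against Early and for rim against interior spots. For Advanced against WT edgeR called 3 lower, Jchain (-0.59), Hsp90b1 (-0.78) and the chaperone Hspa5 (-0.66), where DESeq2 called 0. At an unadjusted p under 0.05 were 2 of the 10 for Advanced against Early, 6 for Advanced against WT and 3 for rim against interior spots. Over all genes tested, 1007 of 13102, 1408 of 13102 and 2386 of 10998 were under it in these comparisons, and 1333 of 9969 for plasma-marker spots. Of the 13 genes for V(D)J joining, class switching and hypermutation, such as Rag1 and Dntt, 0 of 11, 0 of 11, 0 of 10 and 0 of 8 tested passed in edgeR in the 4 comparisons, taken in the order above. At an unadjusted p under 0.05 there were 3, 0, 3 and 1, to be read against the counts over all genes just given. Of the 3 factors that act at V gene promoters, Pou2f1, Pou2f2 and Pou2af1, 0 passed in edgeR. At an unadjusted p under 0.05 there were 0, 1, 0 and 2, against the same counts over all genes. DESeq2 called 0 genes of these last 2 lists.

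Between Advanced and Early, edgeR called 5 of the 8 constant genes higher, namely Ighg1, Ighg2b, Ighg2c, Igha and Ighe, and DESeq2 called only Ighg1. This fit had 1 residual degree of freedom, with WT and Early assumed to vary like Advanced, and its p-values for single genes are not leaned on here. Against WT, edgeR called Ighg1 lower in Advanced (log2 fold change -2.35), as did DESeq2, and Ighg2b lower (-0.41) and Ighg3 (0.58) and Ighe (3.14, on 4 UMIs on WT) higher. DESeq2 called neither Ighg2b nor Ighg3 and gave no adjusted p for Ighe. Ighm (log2 fold change 0.33) did not pass in edgeR, though it did without the filter on low counts. Ighg1 took 83.0 of every 10000 UMIs on WT, 4.88 on Early, 16.5 on Advanced 1 and 18.6 on Advanced 2, and Ighg2b took 181, 39.8, 99.6 and 195. Early was the lowest area for both genes. The calls for Ighe rested on Advanced 2, since Ighe took 0.0221 of every 10000 UMIs on WT, 0.0463 on Early, 0.0385 on Advanced 1 and 0.391 on Advanced 2, so that Advanced 1 lay below Early. Ighg3 took 7.80, 12.8, 8.37 and 16.7, and its difference from WT was likewise carried by Advanced 2. Igha took 4.94, 1.86, 5.08 and 2.29, and the Ighv1-81 spot alone held 632 of the 1717 Igha UMIs of Advanced 1. On Ighg2b, the lower call against WT was carried by Advanced 1, while Advanced 2 lay above WT. The V genes gave no counterpart to these differences, since all Ighv genes together had at most 11 UMIs on an area.

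Counts of variable segments differed between the receptor chains. The 17 Igh D and 4 Igh J features had 0 UMIs on the 4 areas, as did the 5 Igk J features. The 160 Igkv features, the kappa variable genes, had 143 UMIs on 40 genes, 17 on WT, 48 on Early, 32 on Advanced 1 and 46 on Advanced 2. The 3 Iglv features, the lambda variable genes, had 538 UMIs, 239 on WT, 114 on Early, 117 on Advanced 1 and 68 on Advanced 2. Over the 4 areas there were 4.20 variable UMIs per 10000 constant UMIs for kappa, 138 for lambda and 41.1 for the T cell receptor alpha and beta chains, against 0.635 for the heavy chain. The lambda value rested on WT, with 686 on that area, 67.5 on Early, 138 on Advanced 1 and 66.5 on Advanced 2, and it was 84.0 without WT. On Advanced 2 the T cell receptor chains, at 80.4, lay above lambda, and on Advanced 1 they had 6.70. The T cell receptor variable genes had 25 UMIs, 5 on WT, 7 on Early, 1 on Advanced 1 and 12 on Advanced 2. Their ratios and their order against lambda rest on these few counts. The longest annotated constant transcript was 532 bases for Igkc, between 452 and 606 for Iglc1, Iglc2 and Iglc3, and between 1214 and 2566 for the heavy chain constant genes Ighm, Ighd, Ighg1, Ighg2b, Ighg2c, Ighg3, Igha and Ighe. Among these 3 immunoglobulin chains, the heavy chain had the longest constant transcripts and, on each of the 4 areas, the fewest variable UMIs per constant UMI, and the part of this length in the result was not tested. Of the 23 spots with an Ighv UMI, 3 also had an Igkv UMI.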

How the data were processed

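Visium libraries of 28 PLNs from 14 mice on 4 capture areas were analysed. The deposited values are UMI counts of each gene in each spot under tissue, which the authors made with Space Ranger 1.1.0 (submitters' processing notes, build GRCm38) and did not normalize. Depth was 1808678 to 5180493 UMIs per area. The members and gene lists were chosen with earlier results of these data known. UMIs were summed per area, position or spot class, and tested with edgeR 4.0.16 (TMM, filterByExpr, quasi-likelihood test, Benjamini-Hochberg over all genes tested, area as block within areas). DESeq2 1.42.0, another normalization, no filter, other spot sets and leaving out areas were alternatives. P-values measure the spread between areas, each of which pools mice. In the whole-area fits only the spread between the Advanced areas was measured, and WT and Early were assumed to vary like them. Intervals (95%, exact) and the floor of 3 counts cover counting error only. Named were the 10 Ighv genes with the most UMIs per area, any Ighv gene called, and the 8 constant genes. The part of the naming rule for genes with at least 50 UMIs found none. Coordinates and sequences came from GENCODE M21, where all 185 identifiers matched. Per-mouse values were not analysed here.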

Additional observations from a re-analysis of the deposited data

How the results depend on the processing

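The Ighv results rest on 27 UMIs. Leaving out the leading spot of each gene left 0 Ighv UMIs on WT, 2 on Early, 0 on Advanced 1 and 3 on Advanced 2 (from 4, 11, 5 and 7), where the zeros follow from each gene of WT and Advanced 1 lying in 1 spot. The Advanced to Early ratio of the Ighv rates, 0.859, lay between 0.697 and 1.031 when either Advanced area was left out. 0 Ighv genes were called in edgeR or DESeq2 under each of the settings tried, and 0 were tested except without the filter on low counts. The numbers of all genes called, which serve as background, depended on the setting. For Advanced against Early 152 were called, 7 by DESeq2 and 36 in interior spots only, and for Advanced against WT 272, 38 by DESeq2 and 40 in interior spots only. For rim against interior spots 884 were called, 420 by DESeq2, 564 in spots with at least 500 UMIs, and from 279 (without Advanced area 2) to 1136 (without WT) when 1 area was left out. For plasma-marker spots 275 were called, 147 by DESeq2, 514 with the top 20% as the class, and from 150 (without Early) to 183 (without Advanced area 1) when 1 area was left out. The causes were not tested. The neighbour ratio with a minimum of 20 UMIs, and the area fits without an Advanced area, which leave no residual degrees of freedom for a test, could not give a value.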

Other observations

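Among the light chains, the lambda variable gene Iglv1 had 444 UMIs, 216 on WT, 82 on Early, 104 on Advanced 1 and 42 on Advanced 2. On WT a single rim spot held 64 of the 216, or 29.6%, and with its neighbours 107, or 49.5%, whereas the same spots held 4.25% of the Iglc UMIs, those of the lambda constant genes. The leading Iglv1 spot of Early, Advanced 1 and Advanced 2 held 8, 8 and 3 UMIs. The WT spot had 53647 UMIs in all and 66 Iglc UMIs. It was chosen after its values were seen. Among the kappa variable genes, Igkv10-96 led with 25 UMIs (2 on WT, 9 on Early, 4 on Advanced 1 and 10 on Advanced 2), followed by Igkv2-109 with 12 and Igkv3-2 with 11.

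Of the 13 other features that lie within the span of the Ighv genes, 2 had UMIs. Gm30948 had 68, with 9 on WT, 12 on Early, 22 on Advanced 1 and 25 on Advanced 2, which is more than all 185 Ighv genes together, and Gm19331 had 1.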
